A study of Mus musculus with 27 samples.

Results

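CA1 pyramidal neurons with low Dcn were examined in single-nucleus RNA sequencing (snRNA-seq) of mouse hippocampus. Dcn encodes decorin, a small secreted proteoglycan of the extracellular matrix, and within CA1 it marks part of the ventral pyramidal cells. A nucleus was a member when it held 200 to 8000 genes and at most 5% mitochondrial UMIs, at least 1 UMI of Slc17a7 or Camk2a, at least 5 of 8 CA1 genes (Galntl6, Fibcd1, Pde11a, Adam12, Ror1, Man1a, Gm10754 and Gm26905), at most 1 UMI each of Prox1, of Gad1 with Gad2 and of Mog with Mag, and at most 1 Dcn UMI. A UMI is a molecular tag that counts an RNA molecule once. The rule found 17405 nuclei among 241938 barcodes, which was 7.21% of the 241266 nuclei within the gene and mitochondrial limits and 95.5% of the 18225 CA1 nuclei found without the Dcn limit. The other 820 CA1 nuclei held at least 2 Dcn UMIs and are called high-Dcn. CA3 nuclei (6153) and dentate granule nuclei (12901) were chosen by their own marker genes for comparison.

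CA1 pyramidal neurons are the output stage of the trisynaptic circuit: dentate granule cells excite CA3, CA3 Schaffer collaterals excite CA1, and CA1 projects to the subiculum and cortex. They are glutamatergic, depend on AMPA and NMDA receptors held by postsynaptic scaffolds for long-term potentiation, and are among the neurons affected in tauopathy. The cells differ along the dorsal to ventral axis and between deep and superficial layers in their receptors, channels and matrix genes.

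The study crossed P301S mice, which carry a human tau transgene with a disease mutation expressed from the mouse prion promoter, with mice lacking Cgas, the enzyme that senses cytosolic DNA and starts the STING and type I interferon pathway. The 27 hippocampi, 1 library per mouse, came from 5 Cgas+/+, 2 Cgas+/- and 2 Cgas-/- mice without the transgene and from 6 P301S Cgas+/+, 6 P301S Cgas+/- and 6 P301S Cgas-/- mice. The Cgas+/+ group held 3 males and 2 females, each P301S group 3 and 3, and the pairs of Cgas+/- and Cgas-/- mice were male. The Cgas deletion was not restricted to neurons, and the prion promoter is active in neurons and in other brain cells. The mice had been through behavioural tests, the labels give no strain, and the age is not stated here because the sources differ on it. The questions were what the P301S transgene changes (P301S Cgas+/+ minus Cgas+/+, the tau contrast), and what losing both copies or 1 copy of Cgas changes in its presence (P301S Cgas-/- or P301S Cgas+/- minus P301S Cgas+/+, the deletion and heterozygous contrasts). The last pair of contrasts share the P301S Cgas+/+ mice, which also enter the tau contrast.

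The libraries held 46091490 to 79484316 UMIs. Members had a median of 12439 UMIs and 3503 genes per nucleus, against a median of 5283 UMIs over all nuclei within the limits. Each mouse gave 115 to 1264 members (median 608) and 1281252 to 17043960 UMIs in their sum. The software version written in the matrix headers was 3.0.2 for 12 libraries, all male, and 3.1.0 for 15. The library of P301S Cgas+/- replicate 1 stood apart: it gave the fewest members (115, or 1.18% of its nuclei), Man1a was detected in 58.3% of them against 96.4% of all members, and several values of the heterozygous contrast are also given without it. Any pair of libraries shared 8 to 48 barcodes, at most 0.570% of the smaller library.

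The label was checked against marker genes. Galntl6 averaged 4684 ± 1072 CPM (UMIs of a gene per 1000000 UMIs of the summed nuclei of a mouse; mean ± SD over 27 mice) in members, against 481 ± 185 in CA3 and 185 ± 301.5 in dentate granule nuclei. Fibcd1 averaged 68.0 ± 20.3 CPM in members, 1.31 ± 1.23 in CA3 and 5.77 ± 2.71 in dentate granule nuclei. Man1a (635 ± 140.3 against 161 ± 42.5 and 18.2 ± 5.21 CPM) and Gm10754 (387 ± 70.1 against 116 ± 45 and 8.24 ± 3.27 CPM) ran the same way. All 4 were higher in members than in CA3 and in dentate granule nuclei in 27 of 27 mice. Galntl6 (chr8:57774052-58912640, GRCm38) encodes an enzyme related to the N-acetylgalactosaminyltransferases, Fibcd1 (chr2:31813290-31846005) a chitin-binding membrane receptor and Man1a (chr10:53904785-54076609) a Golgi mannosidase. Gm10754 (chr10:97681414-97967090, minus strand) is a long noncoding RNA on the same chromosome as Dcn (chr10:97479609-97518143, plus strand), which it does not overlap. These genes chose the nuclei, and CA3 and dentate granule nuclei were held to under 5 of the 8 CA1 genes. Their levels are therefore a description and carry no test. Fibcd1 was detected in 51.9% of members (20% to 66.8% over mice), 1.69% of CA3 and 4.88% of dentate granule nuclei at median depths of 12439, 15600 and 8786 UMIs.

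CA1 markers that the rule did not use gave a more mixed picture. Pou3f1, a transcription factor of CA1 cells, averaged 25.2 ± 11.9 CPM in members, 3.70 ± 3.58 in CA3 and 1.31 ± 0.999 in dentate granule nuclei. Mpped1 (264 ± 36.8, 56.6 ± 59.5 and 15.3 ± 8.60 CPM) and Spink8 (12.1 ± 4.14, 3.58 ± 1.80 and 1.59 ± 1.49 CPM) were likewise higher in members than in CA3 or dentate granule nuclei. Against high-Dcn CA1 nuclei, in 15 mice, Mpped1 was at 282 and 296 CPM and Spink8 at 11.1 and 10.9 CPM. Pou3f1 was at 22.6 CPM in members and 11.9 CPM in high-Dcn nuclei. Wfs1, which encodes the endoplasmic reticulum protein wolframin and marks dorsal CA1, averaged 20.5 ± 13 CPM in members with a range of 4.99 to 51.7 over mice. Zbtb20, a repressor needed for hippocampal pyramidal identity, went against its place in the list: members averaged 2036 ± 627 CPM, below CA3 (3164 ± 1103) in 24 of 27 mice and below dentate granule nuclei (4063 ± 522) in 27 of 27. The CA3 genes Cpne4 (153 ± 87.1 against 994 ± 237 CPM) and Nectin3 (31.5 ± 17 against 227 ± 60.8 CPM), which chose the CA3 nuclei, were low in members.

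Markers of neighbouring regions and cell types were also present. The 7 CA2 genes summed to 1664 to 3873 CPM over mice, as much as the 10 CA1 markers outside the rule (1238 to 4084 CPM); nearly all of it was Fam19a1, a secreted chemokine-like protein, at 2800 ± 480.3 CPM in members and 3224 ± 1009 in CA3 nuclei, while the CA2 genes Amigo2 (0.375 ± 0.41 CPM) and Pcp4 (0.481 ± 0.312 CPM) were near 0. The 7 astrocyte genes summed to 480 to 1424 CPM, most of it Gpc5 (722 ± 240 CPM) and Slc1a2 (171 ± 45.1 CPM), with Gfap at 4.74 ± 5.21 and Aqp4 at 2.89 ± 1.96 CPM. Tshz2, a subiculum marker, averaged 269 ± 181 CPM and ranged from 28.9 to 755 over mice, and Fn1 ranged from 1.54 to 58.9 CPM, and the part of subiculum nuclei among the members was not tested. Slc17a6 averaged 7.97 ± 6.08 CPM. Summed over 8 cortical excitatory genes, members held 196 to 724 CPM, with the highest value in P301S Cgas+/- replicate 1. In that library Rorb, a cortical layer gene, reached 194 CPM against 2.83 to 42.6 CPM in the other 26. Its 8 inhibitory neuron genes, which include Gad1 and Gad2 limited by the rule, summed to 41.4 CPM against 4.26 to 10.6 CPM in the others. Of the CA1 markers outside the rule described above, Pou3f1, Mpped1 and Spink8 went with the label of CA1 pyramidal neurons and Zbtb20 went against it. The part of other cells' nuclei or RNA in these levels was not tested.

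**Figure D1:**
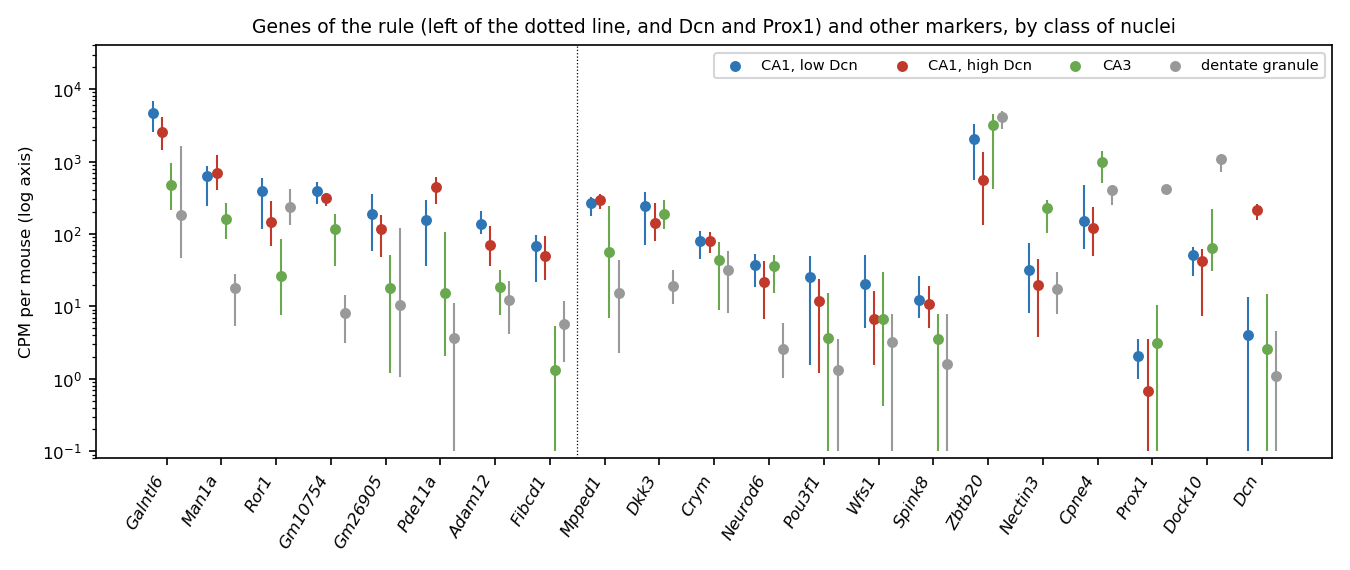
Mean CPM (log axis) of 21 genes in low-Dcn CA1, high-Dcn CA1, CA3 and dentate granule nuclei, with points for the mean over mice and lines from the lowest to the highest mouse; values of 0 are drawn at 0.1. The 8 genes left of the dotted line, Dcn and Prox1 chose the nuclei, as Nectin3 and Cpne4 chose CA3; Zbtb20 is lower in low-Dcn CA1 (mean 2036 CPM) than in CA3 (3164 CPM) or dentate granule nuclei (4063 CPM).

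Beyond the rule, the genes that set members most apart from the other nuclei within the limits by ratio of means were the transcript 4921539H07Rik (236 ± 196.5 against 26.5 ± 13 CPM, 8.93 times), Gm2115 (258 ± 80.7 against 32.8 ± 9.90 CPM) and Stac, an adaptor of L-type calcium channels (158 ± 61.8 against 21.2 ± 6.95 CPM). Gpr161, an orphan receptor of cilia, followed at 75.6 ± 18.8 against 11.7 ± 3.46 CPM. The heparan sulfate enzymes Ndst3 (489.5 ± 116.5 against 118 ± 29.0 CPM) and Ndst4 (382 ± 120.2 against 97.1 ± 29.9 CPM) and the ephrin receptor Epha6 (5034 ± 1340 against 1446 ± 323 CPM) were also among the 30 leading genes. Each of these 7 genes was higher in members in 27 of 27 mice. The nuclei were picked on genes that share their cells, so these values describe the nuclei and were not tested. In the 15 mice compared below, Gpr161 was near level between members and high-Dcn CA1 nuclei (74.3 against 71.1 CPM). There 4921539H07Rik (157 against 12.1 CPM), Ndst4 (363 against 181 CPM) and Epha6 (4592 against 2905 CPM) were higher in members.

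The members varied in how firmly the rule held them. Of the 17405, 4829 (27.7%) had 5 of the 8 CA1 genes, 5325 (30.6%) had 6, 5022 (28.9%) had 7 and 2229 (12.8%) had 8. A further 5890 nuclei with 4 of the genes lay just outside. Mean Galntl6 was higher along this scale, from 18.2 UMIs per nucleus just outside and 35.1 just inside to 97.8 at 8 genes. Fibcd1 was detected in 7.69% just outside, 17.7% just inside and 100% at 8 genes. Both are among the 8 genes counted, so their rise follows in part from the count itself. The 100% of Fibcd1 at 8 genes was fixed by it. On the Dcn side, 16415 members (94.3%) held 0 Dcn UMIs and 990 (5.69%) held 1, while 402 nuclei lay just outside with 2 UMIs. Mean Galntl6 was 64.6, 47.6 and 39.1 UMIs in these classes. A nucleus of low depth can miss Dcn: thinned to 3000 UMIs each, 7612 nuclei passed as CA1 and 7581 of them (99.6%) as low-Dcn. A count of 0 or 1 Dcn UMI is therefore a low count and not evidence that the gene is silent. Nuclei with the highest doublet scores of Scrublet were marked, up to an assumed rate of 0.8% per 1000 barcodes. They were 7.61% of members, 10.2% of high-Dcn nuclei and 7.41% of all nuclei within the limits, the last set by that rate. The marked nuclei were kept, and 4323 members (24.8%) exceeded the 4000 genes at which the study cut its nuclei.

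The share of low-Dcn CA1 nuclei differed widely between mice of a group. In the 5 Cgas+/+ mice it was 11.4%, 3.57%, 6.34%, 7.97% and 6.10% of the nuclei within the limits (mean 7.07 ± 2.89, SD). The P301S Cgas+/+ mice ran from 2.39% through a median of 6.78% to 16.1% (8.13 ± 4.98). The P301S Cgas+/- mice ran from 1.18% through 5.32% to 7.68% (4.95 ± 2.37) and the P301S Cgas-/- mice from 3.01% through 5.96% to 12.1% (6.53 ± 3.69). The groups overlapped in each contrast, and the Cgas+/- (10.9% and 12.6%) and Cgas-/- (12.9% and 10.1%) mice lay at the upper end. Exact two-sided permutation tests over mice gave p = 0.706 for the tau, 0.556 for the deletion and 0.203 for the heterozygous contrast (0.911, 0.911 and 0.805 adjusted over the 6 share tests; the smallest p these tests can reach is 0.00216). Without P301S Cgas+/- replicate 1 the heterozygous difference was -2.42 percentage points (exact permutation p = 0.368). Within software version 3.0.2 the differences were -0.365, -1.57 and -3.86 percentage points in the tau, deletion and heterozygous contrasts (2 against 2 mice each), and within 3.1.0 they were 1.83, -1.61 and -2.83, so the tau difference changed sign between them. Without P301S Cgas+/+ replicate 4, the mouse at 16.1%, the tau difference fell from 1.055 to -0.534 points, the deletion difference was -0.0053 in place of -1.59 and the heterozygous difference -1.59 in place of -3.17. Within 3.1.0 they were then -0.646, 0.871 and -0.353 points, so the direction of the tau and deletion differences there rested on that mouse. A share of nuclei depends on the dissection and on the other cells recovered, so fewer CA1 cells and more nuclei of other kinds cannot be told apart.

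Among CA1 nuclei, the low-Dcn share was 90.7%, 100%, 92.6%, 95.4% and 90.5% in the Cgas+/+ mice (mean 93.8 ± 3.96). It averaged 96.1 ± 2.51% in P301S Cgas+/+, 97.1 ± 5.45% in P301S Cgas+/- and 96.3 ± 4.05% in P301S Cgas-/- mice, 6 in each. The exact permutation p-values were 0.268, 0.911 and 0.768 for the tau, deletion and heterozygous contrasts (0.805, 0.911 and 0.911 adjusted), and the heterozygous difference without P301S Cgas+/- replicate 1 was 0.370 points (exact permutation p = 0.922), in place of 0.956 with all mice. Without replicate 2, the mouse at 86.0%, it was 3.17 points (exact permutation p = 0.039, 0.234 adjusted over the 6 share tests), so the value rested on that mouse. Within version 3.0.2 these differences were 0.226, 3.07 and -2.55 percentage points and within 3.1.0 they were 3.53, -1.21 and 2.71. In 4 mice no CA1 nucleus was high-Dcn, which allows a high-Dcn share of up to 0.515% to 2.61% in them, for counting error only. At the other end P301S Cgas+/- replicate 2 had 72 high-Dcn nuclei of 515 (14%, 95% exact Clopper-Pearson interval 11.1% to 17.3%).

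**Figure D2:**
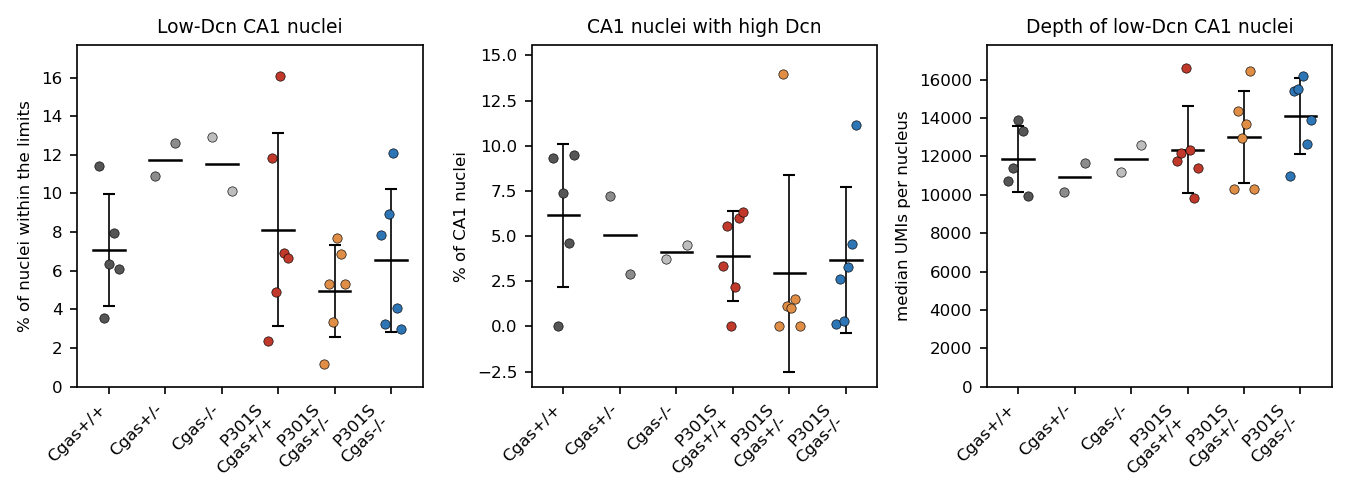
Percent of nuclei within the limits that were low-Dcn CA1, percent of CA1 nuclei that were high-Dcn, and median UMIs per low-Dcn CA1 nucleus, by group; each point is a mouse, the horizontal line the mean and the bar 1 SD (not drawn for the pairs of mice). The groups of each contrast overlap in all 3 panels, while the pairs of Cgas+/- and Cgas-/- mice lie above the P301S Cgas+/- mice in the first, and P301S Cgas+/- replicate 2 stands at 14% high-Dcn, above the other 5 mice of its group.

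The level of the targeted gene came first among the genotype results. Cgas, listed in the files as Mb21d1, was at 1.80 ± 0.389 CPM in members of Cgas+/+ mice, 2.0 ± 0.668 in P301S Cgas+/+, 2.15 ± 0.321 in P301S Cgas+/- and 1.60 ± 0.552 in P301S Cgas-/- mice. The deletion contrast was -0.24 ± 0.25 (log2 fold change ± SE, edgeR unadjusted p = 0.497). The segment removed in the allele is not given in the sources used here and the counted tags come from the 3′ ends and introns of transcripts, so these values do not check the Cgas genotype. Mapt, the mouse tau gene, was at 463 ± 38.6 CPM in Cgas+/+ and 484 ± 56.2 in P301S Cgas+/+ mice (0.05 ± 0.09).

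The tau contrast called 4 of 13971 genes (0.0286%; edgeR quasi-likelihood test, adjusted p under 0.05), all higher in P301S Cgas+/+ members. They were the long noncoding RNA Gm43049 on chromosome 3 (chr3:140692038-140760704, minus strand, GRCm38), its neighbours Gm32754 (chr3:140904998-140917459, minus) and 4930590L14Rik (chr3:140951876-140953247, plus), and Prn on chromosome 2 (chr2:131909957-131956130, plus), an annotated transcript that overlaps the prion protein gene Prnp. At an unadjusted p under 0.05 the contrast had 329 genes (2.35%), and in 32 genes (0.229%) the groups did not overlap. DESeq2 called 8 genes, the same 4 with Bcas1, H2-D1, Lst1 and Oasl2.

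Gm43049 followed the transgene in each library. Its CPM was 17.3, 25.6, 13.3, 11.5, 10.6 and 7.01 in the 6 P301S Cgas+/+ mice and 0 in each of the 5 Cgas+/+ mice (886 UMIs against 0, at least 191-fold higher with 3 counts over the group as the floor, adjusted p = 3.59e-06). Over all 27 mice it lay between 4.46 and 25.6 CPM in the 18 P301S mice and between 0 and 0.179 CPM in the 9 others. Within software version 3.0.2 it averaged 21.4 against 0 CPM and within 3.1.0 it averaged 10.6 against 0 CPM. 4930590L14Rik had 69 UMIs against 0 (at least 14.9-fold higher, adjusted p = 0.00200), and was at 0.538 to 2.50 CPM in the 18 P301S mice and at 0 in the 9 others. Gm32754 had 88 UMIs against 1, 57.0 times the level, with 9.96 to 2275 as its interval for counting error (adjusted p = 0.020); it was above every mouse without the transgene in 17 of 18 P301S mice. Prn was at 3.29 ± 0.773 CPM (n = 6) against 1.02 ± 0.328 (n = 5), a log2 fold change of 1.59 ± 0.27 (adjusted p = 0.0235), and at 1.88 to 4.35 CPM in the 18 P301S mice against 0.518 to 1.51 CPM in the 9 others. Reads of Prn and Prnp cannot be told apart where the genes overlap, and Prnp itself was at 0 to 1.56 CPM. The place of the transgene in the genome is not given in the sources used here. The calls of Prn and Gm32754 each depended on single mice: Prn was not called in 7 and Gm32754 in 6 of the 23 fits that left out a mouse.

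The genes next in order did not pass the edgeR threshold. Bcas1, a gene of myelinating oligodendrocytes, was at 6.66 ± 2.64 CPM in P301S Cgas+/+ and 2.08 ± 0.409 in Cgas+/+ members (1.68 ± 0.32, adjusted p = 0.0785). H2-D1, a class I MHC gene with near-identical copies among which reads may be split, was at 2.90 ± 1.46 against 0.717 ± 0.341 CPM (2.26 ± 0.50, adjusted p = 0.398). Lst1 was at 2.67 ± 0.826 against 6.91 ± 1.07 CPM (-1.45 ± 0.33, adjusted p = 0.411). The lens filament gene Bfsp2 (1.37 ± 0.32), Gm36584 (1.38 ± 0.32) and the complement gene C1qa (1.75 ± 0.46) completed the 10 genes of smallest p, all at adjusted p-values of at least 0.470.

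Interferon-stimulated genes are transcribed when type I interferon binds its receptor, and they include antiviral sensors and the class I MHC pathway. Of 34 listed genes 24 were tested in the tau contrast, and all 24 had a log2 fold change over 0, against 48.8% of all genes. At an unadjusted p under 0.05, 15 of 24 were higher, against 1.32% of all genes, and 0 were called by edgeR while DESeq2 called Oasl2 and H2-D1. The median log2 fold change of the 24 was 1.90, and that of all genes tested was -0.0045. With only the compared groups in the fit, 15 of the listed genes were tested and 15 were over 0. The median was then 0.93, and 9 were higher at an unadjusted p under 0.05 by edgeR, against 0.979% of all genes. The filter on low counts keeps genes that are high in 1 group, so the list was also read without it: 34 of 34 had a higher mean CPM in P301S Cgas+/+ mice, against 50.9% of the 24173 genes with a UMI in these mice, and 3 of 34 were higher without overlap, against 0.149% of those genes.

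Single genes showed how unevenly the mice contributed. Oasl2, a member of the oligoadenylate synthetase family, was at 2.30, 1.4, 8.01, 0.181, 16.9 and 5.99 CPM in the P301S Cgas+/+ mice and at 0, 0, 0.124, 0 and 0.129 CPM in the Cgas+/+ mice (330 UMIs against 2, 107 times the level, with an interval for counting error of 29.3 to 886). Rnf213, an interferon-induced ubiquitin ligase, was at 9.60, 5.52, 8.84, 2.54, 28.2 and 18.2 CPM against 2.94, 3.5, 1.98, 1.46 and 3.11 CPM (2.92 ± 0.95, unadjusted p = 0.00626). Oasl2 did not overlap between the groups, while Rnf213 did through replicate 4. Parp9 (1.01 ± 0.30) did not overlap either, and Eif2ak2 (2.09 ± 0.65), Ddx60 (3.38 ± 1.08), Usp18 (5.48 ± 1.86) and B2m (1.03 ± 0.44) were among those at an unadjusted p under 0.05. Replicate 5 was highest in both Oasl2 and Rnf213. Without it 9 of 22 tested genes were higher at an unadjusted p under 0.05 by edgeR, against 0.763% of all genes. Of the 22, 20 had a log2 fold change over 0, beside 48.8% of all genes in the fit with every mouse, and the median was 1.01.

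Summed over the 34 genes, members held 78.0, 76.9, 63.8, 80.6 and 73.1 CPM in the Cgas+/+ mice. The Cgas+/- mice held 80.0 and 92.5 CPM and the Cgas-/- mice 77.8 and 78.2 CPM. The P301S Cgas+/+ mice ranged from 87.8 through a median of 146 to 283 CPM, the P301S Cgas+/- mice from 69.5 through 154 to 388 CPM (to 252 CPM with a median of 123 without replicate 1), and the P301S Cgas-/- mice from 60.7 through 122 to 571 CPM. All 6, then 5 of 6 (4 of 5 without replicate 1) and 5 of 6, lay above every Cgas+/+ mouse, as did 1 of 2 Cgas+/- and 0 of 2 Cgas-/- mice without the transgene, so P301S mice with and without Cgas both held high and low sums. The highest was P301S Cgas-/- replicate 2, in which Oasl2 stood at 49.3 CPM and was detected in 30.7% of its 300 members, against 0% to 0.186% of members in Cgas+/+ mice. In that mouse CA3 nuclei held 142 and dentate granule nuclei 155 CPM of the same genes, below the 571 CPM of its CA1 members. The mean sum was higher in P301S Cgas+/+ mice in the other classes too, with no test: it was 151 ± 71.3 CPM in P301S Cgas+/+ against 74.5 ± 6.57 in Cgas+/+ members, 151 ± 60.3 against 93.4 ± 10.1 CPM in CA3, 122 ± 59.1 against 63.9 ± 6.87 CPM in dentate granule and 308 ± 155 against 132 ± 25.2 CPM in all nuclei within the limits (6 and 5 mice).

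In the deletion contrast 10 of the 24 interferon-stimulated genes had a log2 fold change over 0 (55.3% of all genes) with a median of -0.05, but without P301S Cgas-/- replicate 2 it was 2 of 22 (54% of all genes) with a median of -0.51. In the heterozygous contrast it was 11 of 24 (52.3% of all genes) with a median of -0.10, but without P301S Cgas+/- replicate 1 it was 3 of 23 (50.1% of all genes) with a median of -0.37. None of them was higher or lower at an unadjusted p under 0.05 in either contrast, with or without those libraries. Within the libraries of software version 3.0.2 the mean sum was 344 CPM in P301S Cgas-/- against 114 in P301S Cgas+/+ mice (2 and 2), and within version 3.1.0 it was 118 against 170 CPM (4 and 4), so the direction differed between them. Replicate 2 of P301S Cgas-/- set the first mean: without it the version held 1 such mouse at 117 CPM, and the whole group averaged 118 ± 47.5 CPM (n = 5) in place of 193 ± 190 CPM (n = 6), against 151 ± 71.3 CPM in P301S Cgas+/+ mice. The tau contrast ran one way in both, with 114 against 77.5 CPM in version 3.0.2 (2 and 2) and 170 against 72.5 CPM in version 3.1.0 (4 and 3).

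Some glial marker lists were higher on average in P301S Cgas+/+ mice in the same nuclei, beside 48.8% of all genes over 0 and 1.32% higher at an unadjusted p under 0.05. The 8 microglial markers summed to 31.2 ± 4.85 CPM in Cgas+/+ (26.1 to 38.5) and 40.7 ± 6.80 in P301S Cgas+/+ members (31.7 to 52.1). Of 7 tested, 7 had a log2 fold change over 0 with a median of 0.70, and 2 an unadjusted p under 0.05. Read without the filter on low counts, 7 of the 8 had a higher mean CPM, against 50.9% of genes with a UMI in these mice. By that reading 0 of the 8 were higher without overlap, against 0.149% of those genes. The 8 oligodendrocyte markers summed to 169 ± 39.6 CPM (123 to 232) and 218 ± 75.4 CPM (132 to 344), with 8 of 8 tested over 0 and 3 at an unadjusted p under 0.05. Mog and Mag, which the rule limits, are among these 8, so this list is not free of the rule. None of the 8 and 8 markers was at 0 over either group. Over 0 were also 7 of 7 astrocyte, 3 of 3 oligodendrocyte progenitor and 5 of 5 endothelial and choroid plexus genes tested, but 0 of 4 inhibitory neuron (Gad1, which the rule limits, among them), 0 of 7 subiculum and 2 of 7 cortical excitatory genes, with 0 of these at an unadjusted p under 0.05. The tested genes are those left by the filter on low counts, which keeps genes that are high in 1 group. The part of all these lists in the result on interferon-stimulated genes was not tested.

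**Figure D3:**
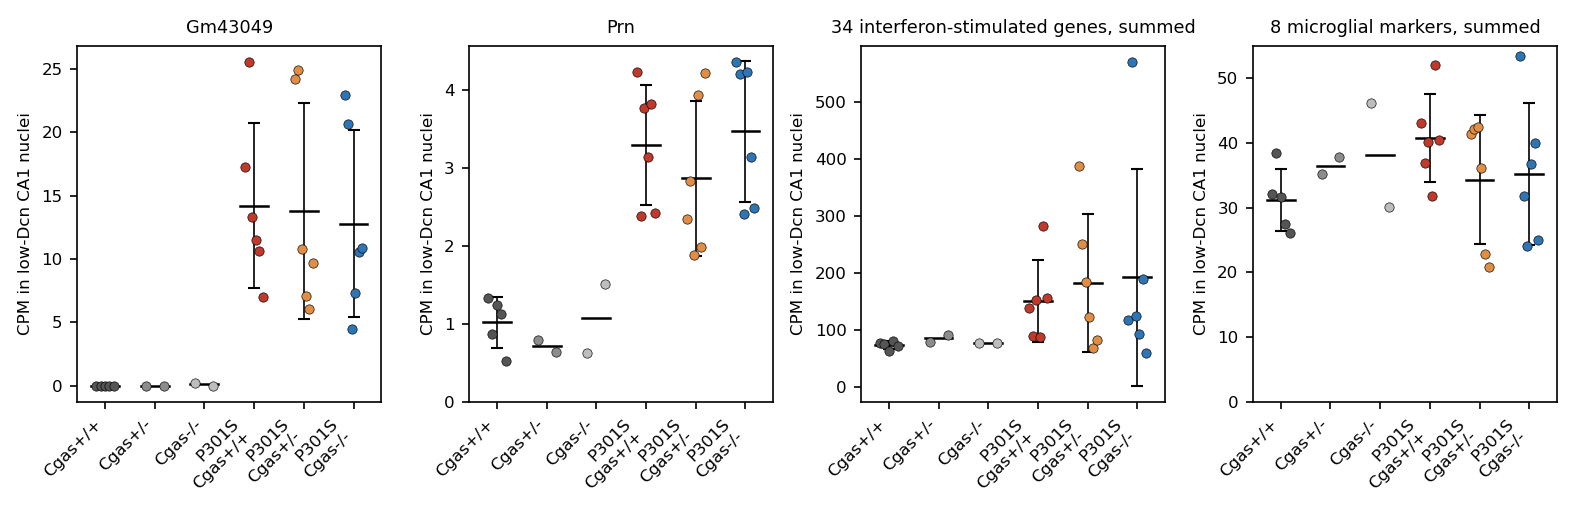
CPM of Gm43049, of Prn, of 34 interferon-stimulated genes summed and of 8 microglial markers summed, in low-Dcn CA1 nuclei by group; each point is a mouse, the horizontal line the mean and the bar 1 SD (not drawn for the pairs of mice). Gm43049 and Prn separate the 18 P301S mice from the 9 others, while the interferon sums of the P301S groups run from 60.7 to 571 CPM and overlap each other.

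Deleting Cgas in P301S mice changed no gene past the threshold in members: the deletion contrast called 0 of 13971 genes by edgeR (565 at an unadjusted p under 0.05, 4.04%, of which 2.03% higher and 2.01% lower) and 0 by DESeq2 (643 unadjusted). The heterozygous contrast called 0 by edgeR (412, 2.95%, of which 1.51% higher and 1.44% lower) and 0 by DESeq2 (451). The counts remained 0 under all 35 alternatives tried for each.

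The groups did not overlap in 8 genes (0.0573%) of the deletion and 13 (0.093%) of the heterozygous contrast. The genes of smallest p are named as not passing the test. Scara3, a scavenger receptor, was at 2.85 ± 1.10 CPM in P301S Cgas-/-, 2.26 ± 0.757 in P301S Cgas+/- and 0.918 ± 0.419 in P301S Cgas+/+ members (1.5 ± 0.33 and 1.26 ± 0.34). Bmper, an extracellular regulator of BMP signalling, was at 13.8 ± 5.58, 8.51 ± 3.08 and 5.62 ± 2.53 CPM, and Cgas+/+ mice without the transgene were at 10.2 ± 3.53 CPM. Tppp, a tubulin-binding protein, was at 20.1 ± 3.05, 17.2 ± 3.35 and 14.6 ± 2.15 CPM. The glycosyltransferase Gcnt4 (1.32 ± 0.35), Col24a1 (2.04 ± 0.57) and Sde2 (0.41 ± 0.12) were on the same side of the deletion contrast, and the focal adhesion gene Parva (-0.77 ± 0.19), Ttyh2 (-1.01 ± 0.27), Gm49169 (-1.10 ± 0.30) and Hpgd, a prostaglandin-degrading enzyme (-2.53 ± 0.71), on the other. In the heterozygous contrast the 10 were Bfsp2 (-1.28 ± 0.32), Atp6ap1l (2.33 ± 0.59), Scara3, the connexin gene Gjc3 (-0.99 ± 0.27), Psmg4 (0.69 ± 0.20), Csnk1e (0.40 ± 0.11), Arhgef15 (1.0 ± 0.28), Cdyl (-0.42 ± 0.12), Gm46323 (-1.21 ± 0.35) and Gm40331 (2.16 ± 0.62). Without P301S Cgas+/- replicate 1 Atp6ap1l was at 1.63 and Arhgef15 at 0.87, and the other 8 kept their direction. Every adjusted p in the pair of contrasts was at least 0.9998.

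Activity-regulated genes are induced within minutes to hours of synaptic activity. In the deletion contrast 13 of 18 tested had a log2 fold change over 0 (55.3% of all genes), 5 had an unadjusted p under 0.05 (2.03% of all genes were higher by that measure) and 0 were called. Fos, an immediate early transcription factor, was at 0.471, 8.02, 6.87, 3.11, 1.12 and 2.03 CPM in the P301S Cgas-/- mice and at 3.07, 0.839, 1.53, 1.63, 0.908 and 0.892 CPM in the P301S Cgas+/+ mice (1.4 ± 0.49, unadjusted p = 0.00846). Egr1 was at 4.47, 30.5, 43.0, 30.9, 6.28 and 10.2 CPM against 13.4, 4.33, 12.4, 14.1, 4.99 and 6.75 CPM (1.15 ± 0.43). High values in replicates 2, 3 and 4 carried both genes, and the groups overlapped. Npas4 (1.04 ± 0.42), Egr4 (0.94 ± 0.45) and the nuclear receptor Nr4a1 (0.48 ± 0.21) were the other 3. Without P301S Cgas-/- replicate 2 the number at an unadjusted p under 0.05 was 0, and without replicate 3 it was 1.

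Mef2c, a transcription factor of synapse number and cognition, is among the genes the study followed in neurons. The study reported it raised in excitatory and inhibitory neurons of P301S Cgas-/- mice by a test over nuclei. It also reported more MEF2C protein in CA1 neurons. Sums per mouse over CA1 members are another measure, so the values below are not set against those results. In members Mef2c (chr13:83504034-83667080, GRCm38) was at 56.5, 40.5, 110, 58.7 and 79.2 CPM in the Cgas+/+ mice. It was at 84.1, 50.2, 53.0, 32.9, 48.0 and 73.5 CPM in the P301S Cgas+/+ mice, at 71.9, 114, 62.9, 47.1, 97.6 and 76.7 CPM in the P301S Cgas-/- mice, and at 375, 64.1, 115, 57.2, 59.3 and 66.6 CPM in the P301S Cgas+/- mice. The groups overlapped in every contrast, and 375 CPM belonged to P301S Cgas+/- replicate 1, whose cortical markers were the highest. On the log2(CPM + 1) scale the difference was -0.26 for the tau contrast (exact permutation p = 0.426), 0.46 for the deletion contrast (p = 0.113, adjusted 0.175 over the 3) and 0.75 for the heterozygous contrast (p = 0.117, adjusted 0.175). Without replicate 1 the heterozygous difference was 0.35. The tau log2 fold change by edgeR was 0.06 without Cgas+/+ replicate 3, the mouse at 110 CPM. With all mice the edgeR log2 fold changes were -0.35 ± 0.38, 0.46 ± 0.36 and 0.93 ± 0.37, with an unadjusted p of 0.0202 for the last and an adjusted p of 0.9998. Within software version 3.0.2 the tau difference was 0.43 (2 against 2 mice) and within 3.1.0 it was -0.67 (4 against 3), while the deletion difference was 0.47 and 0.45. With at most 4000 genes per nucleus the tau, deletion and heterozygous differences were -0.17, 0.18 and 0.65 (exact permutation p = 0.437, 0.452 and 0.240).

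A list of excitatory neuron genes was taken from the study, Mef2c among them, which chose them on these samples, so their direction is not independent evidence. Its members Epha6 and Epha7 are an assumed match to names the study writes as Eph6 and Eph7 and describes as lowered by the deletion, so a count over 0 is a count of signs and no measure of likeness to the study. In the deletion contrast 13 of 21 had a log2 fold change over 0 (55.3% of all genes), 2 were higher at an unadjusted p under 0.05 (2.03% of all genes) and 0 were called, a share over 0 near that of all genes. Without Epha6 and Epha7 it was 11 of 19. Satb1, a chromatin organiser, was at 57.5 ± 8.88 CPM in P301S Cgas-/-, 49.0 ± 11.3 in P301S Cgas+/-, 39.2 ± 8.42 in P301S Cgas+/+ and 47.3 ± 15.8 in Cgas+/+ members, 6, 6, 6 and 5 mice (deletion 0.56 ± 0.18, unadjusted p = 0.00511). Igsf3 was at 7.95 ± 2.34, 7.53 ± 1.47, 5.24 ± 1.41 and 6.87 ± 1.33 CPM (deletion 0.56 ± 0.21, unadjusted p = 0.0126). Nrg1, a ligand of ErbB4, was at 964 ± 408 CPM in P301S Cgas-/-, 1015 ± 314 in P301S Cgas+/+ and 1264 ± 496 in Cgas+/+ members (deletion -0.08 ± 0.33), and Dpp10, a subunit of Kv4 channels, at 194 ± 120.3, 140.1 ± 84 and 212 ± 105 CPM (0.69 ± 0.58). In the tau contrast 6 of 21 were over 0 (48.8% of all genes), and in the heterozygous contrast 13 of 21 (52.3%; 11 of 21 without P301S Cgas+/- replicate 1), with 0 called in each.

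**Figure D4:**
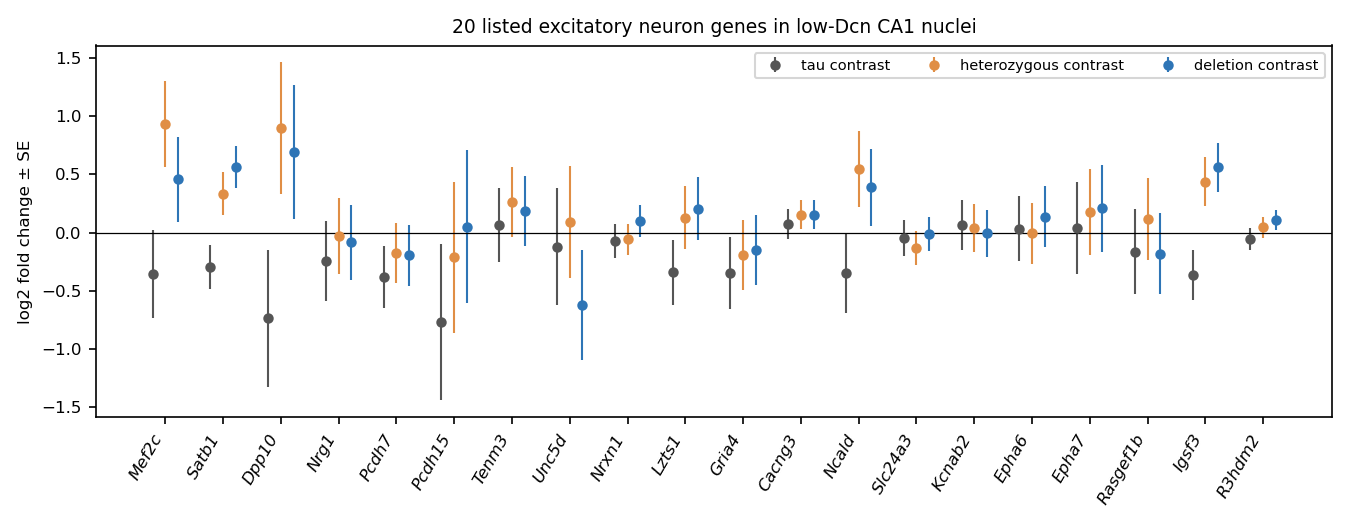
Log2 fold change (vertical axis, with bars of 1 SE) of 20 of the 21 excitatory neuron genes on the list taken from the study in low-Dcn CA1 nuclei, for the tau, heterozygous and deletion contrasts. Most bars cross 0; Satb1 and Igsf3 (both 0.56) stand above it in the deletion contrast, and none of the 20 passed the adjusted threshold.

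Receptor, channel and scaffold lists had 0 genes called in the genotype contrasts. In the tau contrast the median log2 fold change was 0.02 over 17 AMPA, kainate and NMDA receptor genes, -0.01 over 12 GABA-A receptor subunits, -0.02 over 28 potassium and HCN channel genes and -0.0047 over 17 postsynaptic scaffold and kinase genes, beside -0.0045 over all genes. In the deletion contrast these medians were -0.05, 0.01, -0.0045 and 0.02, beside 0.02 over all genes, and in the heterozygous contrast -0.05, -0.08, -0.04 and 0.01, beside 0.01 (-0.04, -0.10, -0.04 and 0.05 without P301S Cgas+/- replicate 1, beside 0.00033). The 7 metabotropic glutamate receptor genes lay further off, with medians of -0.16, 0.17 and -0.03 in the tau, deletion and heterozygous contrasts and 1, 5 and 3 of 7 over 0; the last median was -0.10 without that library.

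Low-Dcn and high-Dcn CA1 nuclei of the same mouse differed widely beyond Dcn. In the 15 mice with at least 20 nuclei of each class (4 Cgas+/+, 2 Cgas+/-, 2 Cgas-/-, 4 P301S Cgas+/+, 1 P301S Cgas+/- and 2 P301S Cgas-/-), 2323 of 10562 genes outside the rule were called (22%; edgeR with mouse as a block), 1177 higher (11.1%) and 1146 lower (10.9%) in low-Dcn nuclei. The even split depended on the filter on low counts: without it 2818 genes were called, 2059 higher and 759 lower. At an unadjusted p under 0.05 it was 30.8%. Dcn chose the classes and is not tested: it averaged 4.01 ± 3.56 CPM in members of 27 mice and 215 ± 25.6 CPM in high-Dcn nuclei of 15 mice. The other genes took no part in the choice of class. High-Dcn nuclei were somewhat deeper (median 13529 against 12439 UMIs). With nuclei of matched depth fewer genes were tested (6625, rule genes included), among them 1844 of the 2323. There 1256 genes outside the rule were called, 1177 of them among the 2323 and all of these in the same direction.

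Genes higher in low-Dcn nuclei included receptors and matrix genes. The muscarinic receptor gene Chrm3 was at 1324 ± 388 CPM against 271 ± 89.7 (2.34 ± 0.13, adjusted p = 1.57e-09), and higher in low-Dcn nuclei by 1.15 to 3.03 on the log2(CPM + 1) scale in the 15 mice. The serotonin receptor gene Htr2a was at 24.9 ± 7.22 against 4.59 ± 3.34 CPM (2.44 ± 0.21). The collagen gene Col11a1 was at 44.7 ± 23.6 against 4.10 ± 4.61 CPM (3.29 ± 0.22), and 4921539H07Rik at 157 ± 119 against 12.1 ± 9.51 CPM (3.66 ± 0.16). Zbtb20 was at 1849 ± 598 against 564 ± 299 CPM (1.84 ± 0.08), so high-Dcn nuclei were lower still than members in this gene. Itpr2, an inositol trisphosphate receptor (1.81 ± 0.19), the proteoglycan Bcan (1.92 ± 0.23), the adhesion molecule Clmp (1.93 ± 0.22), the transcription factor Onecut2 (1.77 ± 0.22), the RNA-binding protein Rbms1 (1.74 ± 0.19), Luzp2 (1.91 ± 0.28) and Strip2 (1.83 ± 0.36) completed the 12. Luzp2 and Strip2 ran this way in 14 of 15 mice and the other 10 in 15 of 15. Running the same way in at least 14 of 15 mice was a condition for naming a gene, so this evenness describes the choice.

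The 12 named genes higher in high-Dcn nuclei ran the same way in 15 of 15 mice, under the same condition for naming. Other called genes were less even: Unc5d was higher in high-Dcn nuclei in 11 of 15 mice. C1qtnf7, a secreted C1q-like protein, was at 1.92 ± 1.38 CPM in low-Dcn and 41.8 ± 31.7 in high-Dcn nuclei (-4.37 ± 0.30, adjusted p = 1.50e-08). Rgs6, a regulator of G-protein signalling, was at 87.5 ± 36.7 against 415 ± 95.5 CPM (-2.27 ± 0.17). The alpha-1A adrenergic receptor gene Adra1a was at 47.2 ± 16.6 against 165 ± 32.8 CPM (-1.79 ± 0.12) and the delta opioid receptor gene Oprd1 at 7.06 ± 1.82 against 25 ± 9.98 CPM (-1.72 ± 0.12). The growth factor Vegfd (-1.97 ± 0.15), the nuclear receptor Pparg (-1.75 ± 0.16), the phospholipase Plce1 (-1.85 ± 0.13), the protease Adamts18 (-1.86 ± 0.15), Galnt14 (-1.79 ± 0.16), Mamdc2 (-2.18 ± 0.18), Gm11639 (-2.17 ± 0.19) and 9630002D21Rik (-2.51 ± 0.18) completed the 12.

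**Figure D5:**
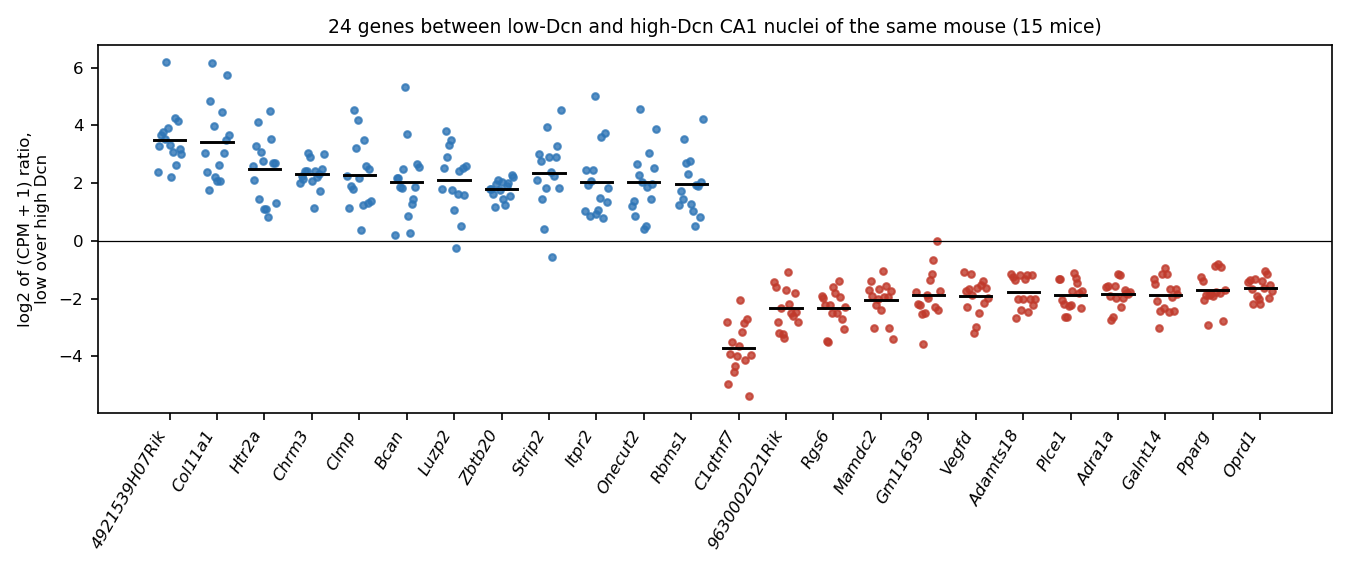
Log2 of the ratio of (CPM + 1) in low-Dcn over high-Dcn CA1 nuclei of the same mouse for 24 genes; each point is 1 of 15 mice and the black line the mean. The 12 genes on the left (blue) lie above 0 except for 1 mouse each in Luzp2 and Strip2, and the 12 on the right (red) lie below 0 in all mice, Gm11639 in 1 mouse only just (-0.0087). The 24 genes were chosen to run the same way in at least 14 of 15 mice.

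Known positional markers divided between the classes; 11.1% of all genes were higher and 10.9% lower. Of 8 ventral CA1 genes other than Dcn, 5 were lower in low-Dcn nuclei: Nnat, the imprinted neuronatin gene (46.6 ± 15.4 against 149 ± 47.4 CPM, -1.63 ± 0.09), Grp, a bombesin-like peptide (-0.997 ± 0.17), Gpc3 (-1.22 ± 0.36), the serotonin receptor gene Htr2c (-0.69 ± 0.13) and Etv1 (-0.40 ± 0.08). Htr1b was higher (1.12 ± 0.31). Of 5 dorsal CA1 genes Wfs1 (15.2 ± 8.26 against 6.80 ± 3.95 CPM, 1.18 ± 0.17) and Fndc5 (1.22 ± 0.15) were higher, while Spink8 (0.11 ± 0.13), Mpped1 (-0.01 ± 0.04) and Gpr161 (0.12 ± 0.06) did not pass. Of 9 CA1 markers outside the rule 6 were higher and 0 lower. Of 8 layer markers 4 were higher and 2 lower: Ndst4 (1.06 ± 0.16) and Rgs14 (0.57 ± 0.12) were higher in low-Dcn nuclei, and Sox5 (438 ± 100.1 against 909 ± 85.3 CPM, -1.03 ± 0.08) and Syt17 (-0.82 ± 0.08) lower. The subiculum genes Fn1 (1.63 ± 0.26) and Tshz2 (1.24 ± 0.32) were higher in low-Dcn nuclei and Ntng2 (-0.86 ± 0.08) and Dlk1 (-3.25 ± 0.27) lower; of 5 CA3 genes 3 were higher. The part of subiculum or CA3 nuclei in the result was not tested.

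Synaptic genes differed in kind. Of all genes tested 11.1% were higher and 10.9% lower in low-Dcn nuclei, and the counts of each list are read beside these shares. Of 17 postsynaptic scaffold and kinase genes 11 were higher and 1 lower, with a median log2 fold change of 0.20 beside -0.01 over all genes. Dlgap2 (0.41 ± 0.03), Homer1 (0.48 ± 0.05) and the calcineurin subunit Ppp3ca (2233 ± 315 against 1614 ± 234 CPM, 0.52 ± 0.05) were higher, and Dlg1 (-0.37 ± 0.05) lower. Of 17 AMPA, kainate and NMDA receptor genes 8 were higher and 4 lower: Gria1 was at 4834 ± 535 against 3758 ± 437 CPM (0.42 ± 0.03), and Gria4 at 358 ± 94.9 against 834 ± 124 CPM (-1.198 ± 0.07). Of 7 metabotropic glutamate receptors Grm5 was higher (0.30 ± 0.03) and 4 were lower, Grm7 (-0.22 ± 0.03) among them. Of 12 GABA-A subunits 2 were higher, near the share of all genes, among them Gabra5, which mediates tonic inhibition in CA1 (187 ± 29.2 against 122 ± 26.8 CPM, 0.67 ± 0.06), and 4 were lower, with Gabra3 at -0.96 ± 0.08 and Gabra2 at -0.44 ± 0.04. Among 23 synaptic adhesion genes 6 were higher and 6 lower. Nrxn3, a presynaptic neurexin, was at 5985 ± 793 against 1953 ± 385 CPM (1.68 ± 0.09), and Lrrtm4, a neurexin-binding postsynaptic protein, at 2441 ± 1212 against 4838 ± 809.6 CPM (-1.08 ± 0.16).

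Potassium channel genes split almost evenly, with 10 of 28 higher and 12 lower, beside 11.1% and 10.9% of all genes, shares that also stand beside the counts of the lists that follow. Kcnd2, the main A-type channel of CA1 dendrites, was at 4090.1 ± 726 CPM in low-Dcn and 2322 ± 332 in high-Dcn nuclei (0.86 ± 0.05), with its subunit Kcnip4 (0.94 ± 0.10), Kcnc2 (1.37 ± 0.07), Kcnh7 (1.203 ± 0.12) and the M-channel gene Kcnq3 (0.74 ± 0.06) on the same side. Kcnd3 (-0.73 ± 0.10), Kcnip1 (-1.19 ± 0.14), Dpp10 (-0.98 ± 0.08), Kcnt2 (-0.53 ± 0.04) and the SK channel gene Kcnn3 (-0.56 ± 0.07) were lower. Of 14 activity-regulated genes 7 were higher and 1 lower; Nr4a1 was at 60.5 ± 19.7 against 39.3 ± 13.8 CPM (0.68 ± 0.09) and Nptx2 at 8.25 ± 3.06 against 2.85 ± 3.28 CPM (1.65 ± 0.25). Of 6 genes of the glucocorticoid and mineralocorticoid receptor pathway 5 were higher and 0 lower, led by the kinase Sgk1 (159 ± 12.4 against 97.7 ± 20.9 CPM, 0.77 ± 0.06) with the mineralocorticoid receptor Nr3c2 (0.35 ± 0.06). Mef2c was lower in low-Dcn nuclei (60.6 ± 20.2 against 126 ± 73.9 CPM, -0.95 ± 0.15, adjusted p = 0.000246), in 14 of 15 mice, while Mef2a (0.38 ± 0.05) was higher. Of the 21 excitatory neuron genes taken from the study 8 were higher and 9 lower, with Epha7 at 1.36 ± 0.16 and the protocadherin gene Pcdh7 at -1.48 ± 0.10. Of 3 astrocyte genes tested Gpc5 (1.402 ± 0.14) and Slc1a2 (0.37 ± 0.12) were higher, and of 4 oligodendrocyte genes St18 was higher (1.45 ± 0.22) and Mbp lower (-0.40 ± 0.06).

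Whether genotype acted differently in the classes was tested by interaction terms. Between low-Dcn and high-Dcn nuclei the tau contrast differed in 1 of 13815 genes (0.00724%) and the deletion contrast in 1. The heterozygous contrast had a single P301S Cgas+/- mouse with both classes, replicate 2, whose 14% of high-Dcn nuclei stood apart; assuming that it varies like the other groups, 0 genes differed by edgeR (466 at an unadjusted p under 0.05, 3.37%) and by DESeq2, and nothing is read from this count. At an unadjusted p under 0.05 it was 3.79% in the tau and 4.36% in the deletion contrast, and DESeq2 called 0 in both. Fhod3, an actin-assembling formin, was at 41.8 CPM in Cgas+/+ and 27.6 in P301S Cgas+/+ low-Dcn nuclei, and at 96.2 and 22.2 CPM in high-Dcn nuclei of the same 4 and 4 mice (difference of log2 fold changes 1.41, adjusted p = 0.00658). Mcc was at 19.7 and 27.1 CPM in low-Dcn nuclei of 4 P301S Cgas+/+ and 2 P301S Cgas-/- mice, and at 20.3 and 2.33 CPM in high-Dcn nuclei (3.49, adjusted p = 0.0210), where the last value rests on 3 UMIs. Mef2c in high-Dcn nuclei was at 196 CPM (116 to 324) in 4 Cgas+/+ and 62.4 CPM (51.2 to 80.1) in 4 P301S Cgas+/+ mice, against 76.2 and 51.2 CPM in their low-Dcn nuclei. Its difference between classes was 0.99 ± 0.28 (unadjusted p = 0.00412, with 3.79% of genes under 0.05) and was not called. In 2 P301S Cgas-/- mice Mef2c was at 152 CPM (143 to 161) in high-Dcn nuclei, above each of the 4 P301S Cgas+/+ mice, and at 61.9 CPM (47.1 to 76.7) in low-Dcn nuclei. The class difference of the deletion contrast was -1.04 ± 0.34 (unadjusted p = 0.0109, with 4.36% of genes under 0.05) and was not called either. The levels in high-Dcn nuclei rest on 624, 182 and 192 UMIs in the Cgas+/+, P301S Cgas+/+ and P301S Cgas-/- mice. Between low-Dcn CA1 and dentate granule nuclei 0 of 14068 genes differed in each of the 3 contrasts by edgeR (407, 458 and 507 at an unadjusted p under 0.05, or 2.89%, 3.26% and 3.6%) and by DESeq2 (341, 398 and 476).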

How the data were processed

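Single nuclei were sorted with DAPI from frozen hippocampi of 27 mice and sequenced with 10x Genomics 3′ chemistry (v3). Per the labels and the study's methods, the authors aligned reads to mm10 with Cell Ranger (3.1.0 in the processing notes, which also list Seurat 3.0; 3.0.2 stands in the headers of 12 matrices) and counted pre-mRNA reads. The deposited values are raw UMI counts of 31053 genes per barcode. The authors' normalization, DoubletFinder calls and clusters were not used here. Total UMIs ran from 46091490 to 79484316 per library, so low-count genes in mice with few members are least precise; intervals and floors cover counting error only.

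UMIs were summed per mouse over the nuclei of each class and tested with edgeR 4.0.16 (quasi-likelihood test, TMM, filterByExpr, robust, Benjamini-Hochberg over all genes tested, threshold 0.05) in R 4.3.3. The genotype fit held 23 mice with sex as a covariate; the 2 pairs of Cgas+/- and Cgas-/- mice were left out, as in the study. Low-Dcn and high-Dcn sums of at least 20 nuclei were compared with mouse as a block, rule genes apart. SE is the log2 fold change divided by the root of F. Nuclei were treated as cells of a mouse and never as replicates; each mouse is 1 library. DESeq2 1.42.0 was an alternative (10 adjusted p-values NA in each genotype fit). Shares and Mef2c were tested by exact two-sided permutation over mice. CPM is UMIs per 1000000 UMIs of the summed class in a mouse. CA3 nuclei needed at least 3 CA3 genes, and dentate granule nuclei at least 2 Prox1 UMIs and at least 2 granule genes, each with under 5 of the 8 CA1 genes. Scrublet (scanpy 1.11.5) scored doublets, and the highest scores were marked up to an assumed rate of 0.8% per 1000 barcodes. Positions are from GENCODE vM21 (GRCm38). The scripts were tested on simulated data. Some genes are not reported here, though they count in the lists.

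The members, the 32 gene lists and the tests were chosen with earlier results of these data known. Named genes were the called genes of each contrast, filled up to the 10 of smallest p, and for low against high Dcn the 12 of largest fold each way among called genes with at least 20 CPM in the higher class and the same direction in at least 14 of 15 mice. That last number replaces 25 of 27, since 12 mice had fewer than 20 high-Dcn nuclei. Alternatives were DESeq2, RLE normalization, no filter on low counts, no sex term, all 27 mice, only the compared groups, at most 4000 genes, Scrublet doublets removed, other marker and Dcn limits, thinning or matching depth, a pseudocount of 5, each mouse left out, and, chosen after seeing the data, software version as a term.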

Additional observations from a re-analysis of the deposited data

Results flagged for a closer look

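Of 130 groups of 4 to 10 mice examined for a value far from the others, of which chance gives about 1 in 20, 16 held one. In low-Dcn CA1 nuclei of P301S Cgas+/- replicate 1 the highest values of its group were Mef2c at 375 CPM, H2-D1 at 9.37 CPM, Prnp at 1.56 CPM, Hpgd at 13.3 CPM, Atp6ap1l at 15.6 CPM and Arhgef15 at 3.90 CPM; this mouse had 115 members. P301S Cgas+/- replicate 2 had the lowest share of low-Dcn among CA1 nuclei of its group, 86.0%. In P301S Cgas+/+ mice, replicate 3 had the highest median depth of members (16587 UMIs), replicate 1 the highest Lst1 (4.23 CPM) and Arhgef15 (1.92 CPM), and replicate 5 the highest Bfsp2 (2.36 CPM). In Cgas+/+ mice, Gm32754 was above 0 in replicate 5 alone (0.129 CPM, 1 UMI), which was also highest in Gm40331 (1.42 CPM), Atp6ap1l was highest in replicate 3 (1.49 CPM) and Arhgef15 in replicate 4 (1.46 CPM). In P301S Cgas-/- mice Gm46323 was highest in replicate 4 (8.86 CPM).

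A pair of genes differed in a genotype effect between low-Dcn and high-Dcn CA1 nuclei by the interaction test of edgeR: Fhod3 in the tau contrast (difference of log2 fold changes 1.41) and Mcc in the deletion contrast (3.49). DESeq2 called neither.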

How the results depend on the processing

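Of the values of named genes under the alternatives, 1631 kept their direction and their side of the threshold, 18 lost a call, 9 gained one and 1 changed sign; of the main counts and values 261 held, 18 moved and 8 changed sign, 7 of them in shares of low-Dcn among CA1 nuclei. In the tau contrast 4 genes were called; DESeq2 called 8, at least 6 of 8 CA1 genes gave 2, at most 4000 genes per nucleus 1, only the compared groups 2, and leaving out 1 mouse 2 to 5. Gm43049 was called in all 35, and 4930590L14Rik in the 32 in which it was tested. Prn lost its call in 10 and Gm32754 in 8, while Bcas1 gained one in 6. The deletion and heterozygous contrasts had 0 in all. Between low-Dcn and high-Dcn nuclei 2323 genes were called, against 1364 with at most 4000 genes per nucleus, 1256 with nuclei of matched depth, 1587 without mouse as a block (no replicate block), and 2138 to 2335 with 1 mouse left out. Rule genes included, 10573 genes were tested in the main fit, 9308 with at most 4000 genes per nucleus and 6625 with matched depth. The class differences of the tau contrast (1 gene) were 0 by DESeq2, 8 with at most 4000 genes and 8 without a filter on low counts. Those of the deletion contrast (1) were 0, 46 and 10, and those of the heterozygous contrast (0) were 7 with at most 4000 genes and 3 without the filter, so these counts depended on the settings; the cause was not tested. The low-Dcn share of CA1 nuclei thinned to 3000 UMIs differed by -0.144 percentage points in the tau and -0.259 in the deletion contrast, which turned the sign of 2.27 and 0.217; with 1 mouse left out the latter ran from -0.490 to 1.71, and the tau difference in the share of nuclei from -0.534 to 2.20. Thinning to 3000 UMIs leaves out nuclei with fewer, which were 84722 of those within the limits (35.1%) and 56 members. Among the nuclei within the limits that could be thinned, the share differed by 2.35, -2.48 and -3.93 points in the tau, deletion and heterozygous contrasts. The exact permutation p-values were 0.290, 0.238 and 0.0325 (0.435, 0.435 and 0.195 adjusted over the 6 share tests). The Mef2c tau log2 fold change ran from -0.53 to 0.059 (without Cgas+/+ replicate 3). With 1 mouse left out the interferon-stimulated genes at an unadjusted p under 0.05 in the tau contrast numbered 9 to 19. Software version as a term, added after seeing the data, left 4 genes called. No paired analysis was possible for the genotype contrasts because the labels give the mice no shared numbers; the count of 1587 is the low against high comparison without its pairing. Depth limits genes under a few CPM, whose UMIs per mouse are few, and high-Dcn nuclei, of which mice had 0 to 101.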

Other observations

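Several gene lists not described above were read in the same fits of low-Dcn CA1 nuclei, with 0 genes called in the genotype contrasts. Of all genes 48.8% had a log2 fold change over 0 for tau, 55.3% for loss of both Cgas copies and 52.3% for loss of 1 copy. Of 9 tested genes of the cGAS-STING pathway, 4 had a log2 fold change over 0 for tau, and 5 each for loss of both Cgas copies and of 1 copy. Of 14 genes of tau and its kinases it was 8, 7 and 9, and of 12 genes of stress and the unfolded protein response 3, 9 and 8. Without P301S Cgas+/- replicate 1 the heterozygous counts of these lists were 4, 7 and 9. Of 22 sodium and calcium channel genes it was 11, 11 and 7 (11 without that library), and between low-Dcn and high-Dcn nuclei 4 of the 22 were higher and 5 lower, beside 11.1% and 10.9% of all genes.

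Markers of neighbouring regions lay to one side more often than the other in some contrasts of the members. In the deletion contrast 5 of 7 subiculum genes had a log2 fold change over 0 (median 1.03, 1 at an unadjusted p under 0.05), 1 of 8 dentate granule genes did (median -0.52, 2 lower at an unadjusted p under 0.05) and 2 of 7 CA3 genes did (median -0.38, 2 lower), beside 2.03% of all genes higher and 2.01% lower at that p. The 8 dentate granule genes include Prox1, which the rule limits, so that count is not free of the rule. In the tau contrast 0 of 7 subiculum genes were over 0 (median -0.46). The 7 tested microglial genes were all below 0 in the deletion contrast (median -0.25), with 0 at an unadjusted p under 0.05, and of 8 oligodendrocyte genes 1 was over 0 and 2 were lower at that p both for loss of both Cgas copies (median -0.25) and of 1 copy (median -0.49). These 8 include Mog and Mag, which the rule limits. For loss of 1 copy, 1 of the 7 microglial genes was over 0 (median -0.64), beside 52.3% of all genes. Without P301S Cgas+/- replicate 1 it was 0 of 7 (median -0.60), beside 50.1% of all genes. None of these genes was called, and the part of such nuclei or RNA in the genotype results was not tested.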
